A study of Mus musculus with 6 samples.

Results

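The lipid handling genes Pparg, Lpl, Angptl4, Cd36, Fabp4, Fabp5, Plin2, Hilpda, Pnpla2 and Dgat1 were followed in RELM-α+ peritoneal macrophages of mice. These 10 genes, of 15469 in the deposited table, were chosen by symbol, and all 10 symbols were found. The list was drawn up with the read counts and TPM of the KO and WT libraries already in view, so the differences between KO and WT in these 10 genes are given as a description. Intervals and calls printed for them come from the fit to all genes and are no independent test. The label KO marks 3 libraries of PU.1-deleted macrophages, and the label WT marks 3 libraries of controls. All 6 came from peritoneal cells of CAIA mice, an abbreviation the labels do not spell out, sorted by surface RELM-α and then plated in culture medium. The sources used here do not give the deleting agent, its promoter, or the strain and age of the mice. They do not say whether libraries came from separate animals either, so the p-values rest on a spread among libraries that could be purely technical. The series asked what PU.1, the myeloid transcription factor made from Spi1, does in ferroptosis, cell death by iron-driven lipid peroxidation.

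Macrophages take up fatty acids through the scavenger receptor CD36 or free them from lipoproteins with lipoprotein lipase, and carry them inside the cell on fatty acid binding proteins. Fatty acids that are not burned are built into triglyceride and stored in lipid droplets, from which lipases release them again. PPARγ, the nuclear receptor encoded by Pparg, binds DNA with a retinoid X receptor as partner, is activated by fatty acids and their derivatives, and is known to raise the transcription of Fabp4, Cd36, Plin2, Angptl4 and Lpl. Other inputs, among them PPARδ and hypoxia, are known to act on Plin2, Angptl4 and Hilpda as well. In the annotation within the deposited table, 7 of the 10 genes belong to the KEGG PPAR signaling pathway, and Hilpda, Pnpla2 and Dgat1 do not.

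Start-site sequences of 5 of the 10 genes were matched in RefSeq (GRCm38.p6), with 250 bases before and 50 after each start and 8 windows in all. The windows of Plin2, Cd36 and Hilpda, 3 genes lower in KO, are shown beside the first window of Pparg, whose groups overlapped. These 4 were picked because each holds a match; the Pnpla2 window, the first of Hilpda and the third of Pparg hold neither motif marked here. Capitals mark the half-site AGGTCA of nuclear receptors and the hypoxia response core ACGTG, each on either strand. They run 5′ to 3′ on the strand of the gene.
Plin2, chr4:86670010-86670309, minus strand: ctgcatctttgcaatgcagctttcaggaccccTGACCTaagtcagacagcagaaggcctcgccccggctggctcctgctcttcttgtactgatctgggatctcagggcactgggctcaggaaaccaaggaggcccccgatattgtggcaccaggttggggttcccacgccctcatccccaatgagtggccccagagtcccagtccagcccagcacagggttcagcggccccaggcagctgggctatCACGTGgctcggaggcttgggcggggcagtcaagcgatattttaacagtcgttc
Cd36, chr5:17835847-17836146, minus strand: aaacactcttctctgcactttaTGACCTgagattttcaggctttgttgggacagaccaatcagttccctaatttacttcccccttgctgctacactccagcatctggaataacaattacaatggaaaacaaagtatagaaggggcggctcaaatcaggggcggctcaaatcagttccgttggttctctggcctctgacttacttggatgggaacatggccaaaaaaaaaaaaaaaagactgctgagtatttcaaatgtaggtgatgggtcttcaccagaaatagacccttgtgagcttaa
Hilpda, second start, chr6:29272376-29272675, plus strand: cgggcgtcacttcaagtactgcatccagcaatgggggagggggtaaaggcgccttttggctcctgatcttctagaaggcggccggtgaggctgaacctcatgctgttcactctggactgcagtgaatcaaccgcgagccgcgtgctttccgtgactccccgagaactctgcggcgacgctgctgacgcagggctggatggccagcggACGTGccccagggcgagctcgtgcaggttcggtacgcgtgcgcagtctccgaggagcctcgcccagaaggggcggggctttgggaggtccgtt
Pparg, first start, chr6:115360894-115361193, plus strand: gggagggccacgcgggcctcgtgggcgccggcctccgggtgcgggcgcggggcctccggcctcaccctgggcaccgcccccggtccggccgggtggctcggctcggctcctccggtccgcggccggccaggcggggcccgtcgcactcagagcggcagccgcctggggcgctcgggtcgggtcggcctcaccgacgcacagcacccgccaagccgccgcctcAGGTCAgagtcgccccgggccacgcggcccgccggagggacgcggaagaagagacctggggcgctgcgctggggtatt

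None of the 8 windows held the full PPAR element on either strand, which is 2 copies of AGGTCA with 1 base of any kind between them, nor a relaxed form of it with any base at the fourth letter of each copy. Of 32851 RefSeq windows of the same length, 0.04% held the first and 0.381% the second, the first being a subset of the second. Single half-sites stood in Plin2 at position -218 from the start, in Cd36 at -228 and in the first and second Pparg windows at -28 and -9, against 16.3% of all windows. The core ACGTG stood in Plin2, where the palindrome CACGTG gives a match on both strands at -4 and -3, and in Hilpda at -43, against 19.6% of all windows. The C/EBP core TTNNGNAA stood in Cd36 at -187 and in the third Pparg window at -215 and -16, against 40.7% of all windows. The PU.1 core GAGGAAGT was in none of the 8 windows and in 3.2% of all windows. These are letter matches in short windows and say nothing about binding. The Cd36 window lies inside the gene, which reaches to 17888959 on the minus strand, so its outermost start was not searched.

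Each library held 17280855 to 18632623 estimated counts. Transcripts of Spi1, at 276.9, 285.5 and 319.7 CPM (counts scaled to library size with TMM factors) in KO and 323.4, 340.2 and 283.7 CPM in WT, were not lost, so gene counts do not show the deletion, and directions below are between labels. KO replicate 1 stood apart, with a Pearson's r across genes of 0.902 and 0.922 to the other KO libraries, which agreed at 0.99, and of 0.955 to 0.959 to the WT libraries. The sum of 4 Y-linked genes was 0.0513 to 0.44 CPM in KO and 125 to 171.4 CPM in WT. The label and the sex of the mice therefore cannot be told apart. Of 8 macrophage markers tested, 2 were called higher and 0 lower, beside 2.26% and 1.06% of all genes tested. Csf1r was called higher, and Adgre1 and Cd68 were not called. Csf1r was at 2573 to 2900 CPM in KO and 1560 to 1567 in WT, Adgre1 at 863.8 to 1324 and 662 to 710.9, and Cd68 at 2114 to 2235 and 2300 to 2642. Lyz2 was at 13170 CPM in KO replicate 1 and at 29740 to 36710 in the other 5 libraries. Adipocyte markers were almost absent, with Adipoq, Cfd, Plin1 and Cidec each at 0.205 CPM or less in every library. The sum of the 6 measured, 128.2 to 163.4 CPM in KO and 112 to 120.5 in WT, was nearly all Adipor2.

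The control macrophages carried these transcripts at very unequal levels. Per length, in TPM (the share of transcripts after division by length), Fabp5 stood at 4923 ± 176 in WT (SD, n = 3), rank 15 of the 15469 genes, and Lpl at 2114 ± 357, rank 39. Plin2 followed at 1534 ± 27.3, Fabp4 at 986.8 ± 47.4 and Cd36 at 809.1 ± 209 TPM, the ranges of the last pair overlapping. Pnpla2 was at 122 ± 4.49, Angptl4 at 41.6 ± 3.67, Pparg at 36.7 ± 4.44, Hilpda at 25.5 ± 3.16 and Dgat1 at 20.4 ± 0.402 TPM. Angptl4 and Pparg overlapped, and every other pair of neighbours in this order was separate in the WT libraries. In KO the first 6 kept their order, with Fabp4 and Cd36 again overlapping. Pparg and Dgat1 came next and overlapped, then Hilpda, and Angptl4 was last.

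**Figure D1:**
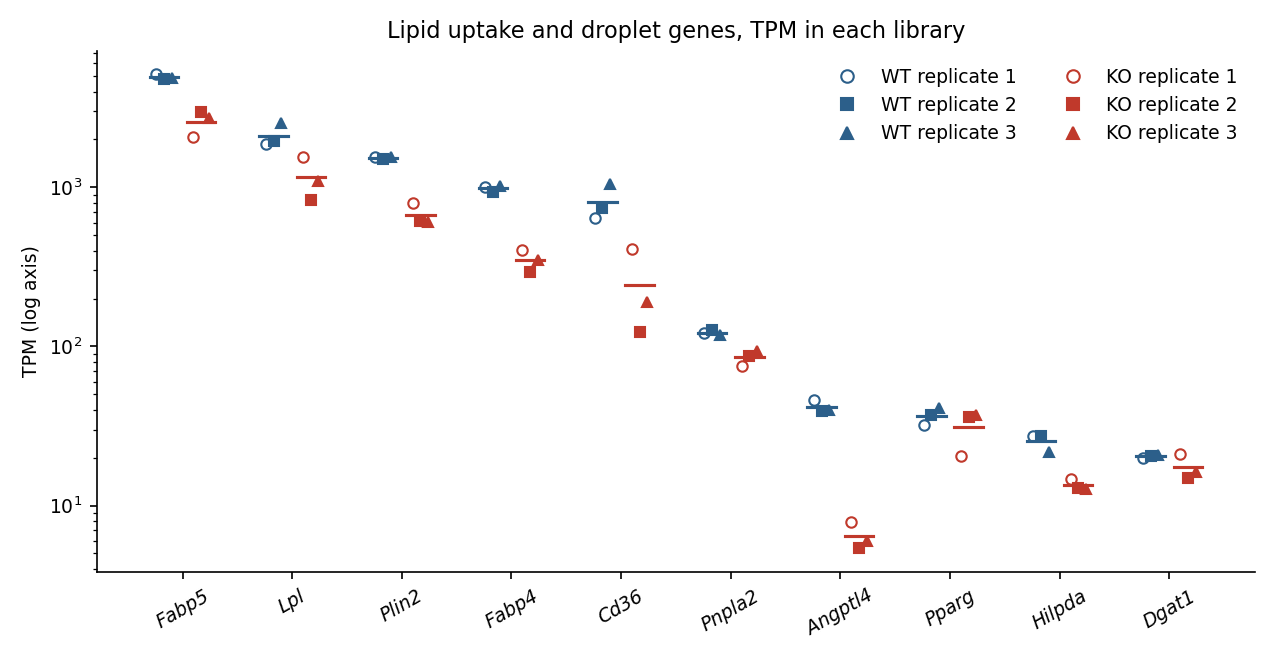
TPM (log axis) of the 10 genes in each library, ordered by the mean of the WT libraries; blue marks are WT, red marks KO, the symbol gives the replicate and the short line the group mean. Angptl4 lies at 5.39 to 7.87 TPM in KO and 39.2 to 45.8 in WT, and the marks of Pparg and Dgat1 overlap between the groups.

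All 10 genes had a lower mean in the libraries labelled KO, from 0.138 of the WT level for Angptl4 to 0.779 for Pparg. Of all genes tested, 50.7% had a log2 difference below 0. Together the 10 made up 0.499% to 0.536% of the TPM of a KO library and 1.02% to 1.12% of a WT library. In the edgeR fit to 11424 genes, 5 of the 10 were called at an adjusted p under 0.05 (Angptl4, Fabp4, Plin2, Hilpda and Fabp5), all lower, while 1.06% of all genes tested were called lower. In CPM, 9 of the 10 had groups that did not overlap, with KO lower, against 12.6% of all genes tested. Because the 10 were chosen on this contrast, nothing is read from these counts. Their median log2 difference was -1.08, and that of all genes tested -0.01. In bulk RNA, fewer cells of one type and less RNA per cell cannot be told apart.

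The number of the 10 called varied with the libraries and the tool. Without KO replicate 1, 9 were called (all but Pparg), where 26% of all genes tested were called lower. Leaving out KO replicate 2 or 3, 2 and 1 were called, and leaving out WT replicate 1, 2 or 3, 2, 0 and 1 were. Angptl4 was the gene called in 5 of these 6 fits, Fabp4 in 3. Of all genes tested, 0.0692%, 0.0606%, 0.0853%, 0.0171% and 0.0256% were called lower in those 5 fits, in the same order. DESeq2 called 8 of the 10 and 3.69% of all genes lower, and limma-voom called 5 of the 10 and 1.1% of all genes lower. With the GC and length correction 6 of the 10 were called, beside 3.02% of all genes lower. At an adjusted p under 0.01, 2 of the 10 were, beside 0.0613% lower. The authors' deposited table held 8 of the 10 at a q-value under 0.05, beside 2.73% of its genes with KO lower. Those q-values are also from DESeq2 on the same libraries, so they are no separate result.

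**Figure D2:**
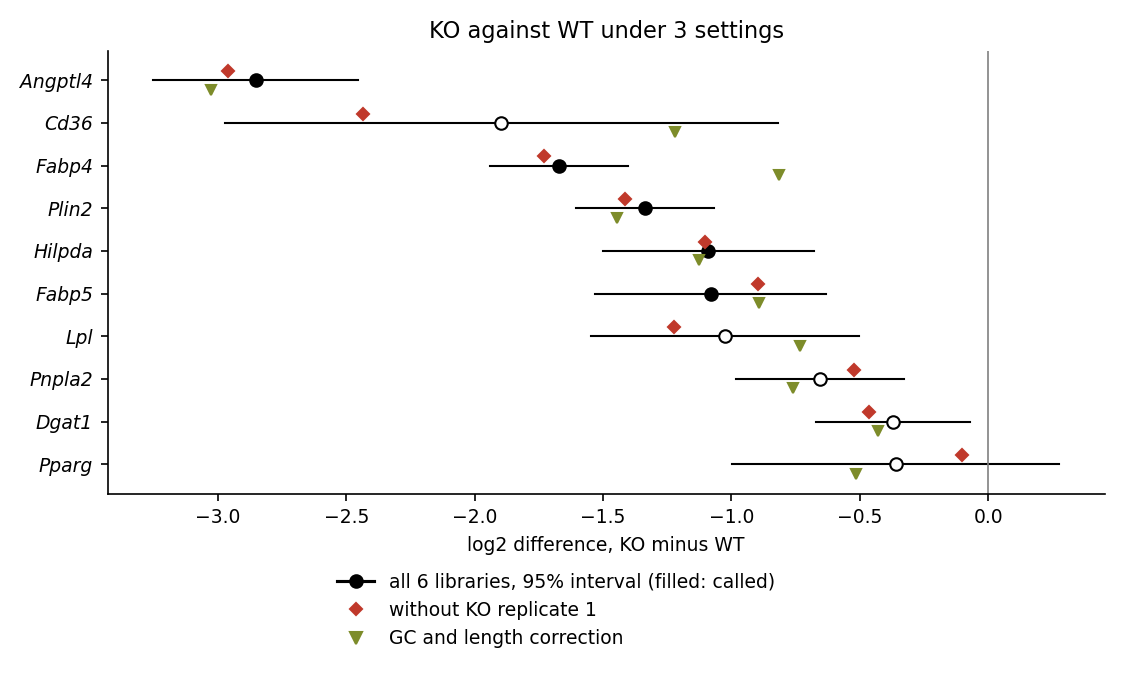
The log2 difference (KO minus WT) of each of the 10 genes from all 6 libraries with its 95% interval, filled where called, beside the value without KO replicate 1 (red diamonds) and after correcting for GC and length of transcripts (green triangles). The correction takes Fabp4 from -1.67 to -0.82 and Cd36 from -1.90 to -1.22, and every point lies below 0.

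The receptor itself was, with Dgat1, the least different of the 10. Pparg (gene ID 19016, chr6:115360879-115490404, GRCm38 as all positions here) had 20.3, 37.7 and 38.8 CPM in KO, against 37.8, 43 and 43.5 CPM in WT, with libraries here and below in the order of replicates 1, 2 and 3. KO replicate 1 was the low library, and the other KO libraries lay at the edge of the WT range, so that the groups overlapped. The log2 difference was -0.36 (SE 0.259, 95% interval -0.998 to 0.278), and -0.10 without KO replicate 1. The interval includes 0.

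Lipoprotein lipase and its inhibitor differed in unlike degree. Lpl (gene ID 16956, chr8:68880555-68906932), the enzyme that splits the triglyceride of lipoproteins, was at 3332, 1971 and 2546 CPM in KO and 4911, 5002 and 6057 CPM in WT. All KO libraries were below all WT libraries, with KO replicate 1 the closest to them. The fold was 0.492 and the log2 difference -1.02 (SE 0.214, interval -1.55 to -0.503), or -1.22 without KO replicate 1 and -0.73 with the GC and length correction.

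Angptl4 (gene ID 57875, chr17:33774900-33781575), a secreted protein that inactivates lipoprotein lipase, had 134, 108 and 117 counts in KO and 902, 755 and 692 in WT. On the CPM scale these were 7.38, 5.54 and 6.1 against 52.5, 43.6 and 41.6, so that the 3 KO libraries lay close together and far below WT. Leaving out any 1 of the 6 libraries kept its log2 difference between -2.96 and -2.77, around -2.85 from all of them (SE 0.164, interval -3.25 to -2.46). Since Lpl was lower by less, there were 196.5, 154.3 and 181.1 Lpl transcripts per Angptl4 transcript in KO, by TPM, and 40.7, 49.9 and 63.5 in WT.

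CD36 was the transcript on which the KO libraries disagreed most. Cd36 (gene ID 12491, chr5:17781690-17888959), the receptor for fatty acids and oxidised lipoproteins, was at 619.1, 204.2 and 310.9 CPM in KO and 1175, 1307 and 1739 CPM in WT. The groups did not overlap, and KO replicate 1 lay closest to WT, well above the other KO libraries. Its log2 difference of -1.90 had the widest interval of the 10 (SE 0.436, -2.97 to -0.819), became -2.44 without KO replicate 1 and -1.22 with the GC and length correction. Platelets also carry CD36: of 8 platelet and megakaryocyte markers, 5 were called lower, beside 1.06% of all genes tested. The 8 summed to 61.2, 20.1 and 18.1 CPM in KO and 72, 125 and 102.2 in WT. Endothelial cells carry Cd36, Lpl and Fabp4 too. The 8 endothelial markers measured summed to 7.35 to 9.86 CPM in KO and 9.65 to 12 in WT, and 0 of the 4 tested were called. Cdh5 was at 0.678 CPM or less and overlapped between groups, and Pecam1 was at 0.719 to 0.826 CPM in KO and 1.45 to 2.1 in WT. The part of these markers in the result was not tested.

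Transcripts of both fatty acid binding proteins were lower. Fabp4 was lower by more than Fabp5 without the GC and length correction, but not with it (log2 -0.82 and -0.89). Fabp4 (gene ID 11770, chr3:10204342-10208616), the adipocyte and macrophage carrier known as aP2, was at 96.7, 77.5 and 89.9 CPM in KO and 297.7, 267.4 and 276.3 CPM in WT. These groups lay more than 2-fold apart. The fold was 0.314 and the log2 difference -1.67 (SE 0.111, interval -1.94 to -1.40). With the GC and length correction the difference was -0.82, and Fabp4 was not called. Its longest coding transcript of 896 bases has 40.3% GC, against medians of 3154 bases and 50.1% over 11193 genes tested.

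Fabp5 (gene ID 16592, chr3:10012585-10016610), the epidermal type carrier, was at 819.4, 1289 and 1163 CPM in KO and 2487, 2259 and 2175 CPM in WT. Here KO replicate 1 was the lowest library, opposite to Fabp4. The fold was 0.473 and the log2 difference -1.08 (SE 0.184, interval -1.53 to -0.631), or -0.90 without KO replicate 1. Of its 3636 windows of 75 bases, 110 also occur in transcripts of 2 other GENCODE genes that the deposited table does not list, so a small share of its reads may have been assigned either way. Fabp4 has no such window.

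The 2 carrier genes are neighbours on chromosome 3, with Pmp2 and Fabp9, other binding protein genes, between them and not analysed here. By TPM there were 5.11, 10.1 and 7.82 Fabp5 transcripts per Fabp4 transcript in KO and 5.08, 5.13 and 4.77 in WT. KO replicate 1 matched the WT libraries in this ratio and the other KO libraries exceeded them.

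The droplet coat gene Plin2 (gene ID 11520, chr4:86626910-86670217), whose protein covers lipid droplets and is stable only when bound to them, was at 724.9, 614.9 and 595.9 CPM in KO and 1706, 1614 and 1571 CPM in WT. Replicates within each group were close, and the groups lay over 2-fold apart. Its fold of 0.396 corresponded to a log2 difference of -1.34 (SE 0.11, interval -1.61 to -1.07), and the value was -1.42 without KO replicate 1 and -1.45 with the GC and length correction.

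Dgat1 (gene ID 13350, chr15:76502012-76512021), which adds the last fatty acid to make triglyceride, was at 19.6, 15.3 and 16.5 CPM in KO and 22.4, 22.5 and 21.7 CPM in WT. In CPM the groups were separate by a small gap. In TPM KO replicate 1, at 21.1, lay above all WT libraries (20, 20.3 and 20.8). The log2 difference was -0.37 (SE 0.124, interval -0.672 to -0.069). There were 37.9, 41.4 and 37.2 Plin2 transcripts per Dgat1 transcript in KO and 77.2, 73.9 and 74.7 in WT.

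**Figure D3:**
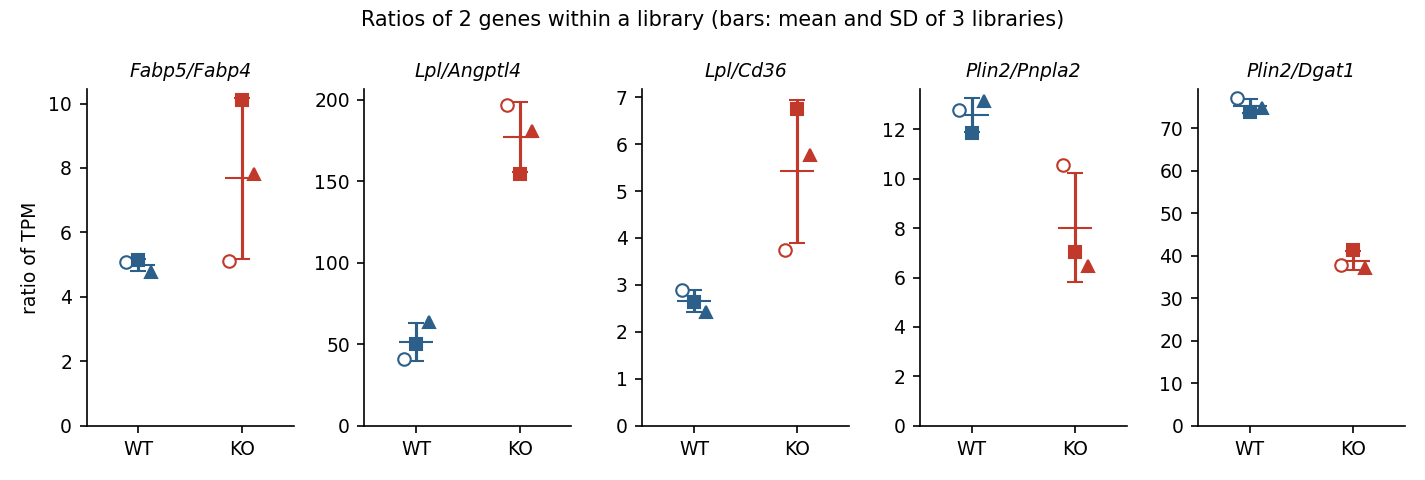
Ratio of the TPM of 2 genes within each library for 5 pairs, with WT in blue, KO in red, the symbol giving the replicate and the bars the mean and SD of 3 libraries. For Lpl over Angptl4 and Plin2 over Dgat1 the 3 KO libraries lie together and apart from WT, whereas for Fabp5 over Fabp4 KO replicate 1 (5.11) lies within the WT range.

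The droplet lipase and its inhibitor were both lower. Pnpla2 (gene ID 66853, chr7:141455188-141460743), which encodes adipose triglyceride lipase, the first enzyme of droplet breakdown, was at 102.3, 130.2 and 137.4 CPM in KO and 199.7, 203.9 and 178.4 CPM in WT. No KO library reached the WT range. The fold was 0.635 and the log2 difference -0.65 (SE 0.134, interval -0.981 to -0.326), or -0.52 without KO replicate 1, its lowest library.

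Hilpda (gene ID 69573, chr6:29272488-29275449), a small droplet protein that inhibits this lipase and is known to be induced by hypoxia and by PPARs, had 111, 114 and 109 counts in KO and 240, 232 and 170 in WT. That is 6.11, 5.85 and 5.68 CPM against 14, 13.4 and 10.2, and the KO libraries were nearly equal. The fold was 0.47 and the log2 difference -1.09 (SE 0.168, interval -1.50 to -0.68), moving to -1.10 without KO replicate 1. The ratio of Pnpla2 to Hilpda transcripts was 5.16, 6.81 and 7.4 in KO and 4.4, 4.68 and 5.41 in WT, so the groups overlapped.

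KO replicate 1 did not stand in the same place for every gene. It was the lowest KO library for Pparg, Fabp5 and Pnpla2, and the highest for the other 7. For Pparg its log2 CPM minus the WT mean was -1.03, where KO replicates 2 and 3 had -0.13 and -0.09. For Cd36 it was -1.16, where they had -2.76 and -2.16. The range of log2 CPM over the 3 KO libraries was 1.6 for Cd36 and 0.935 for Pparg, and 0.105 for Hilpda, where it was smaller than the 0.451 of the WT libraries.

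**Figure D4:**
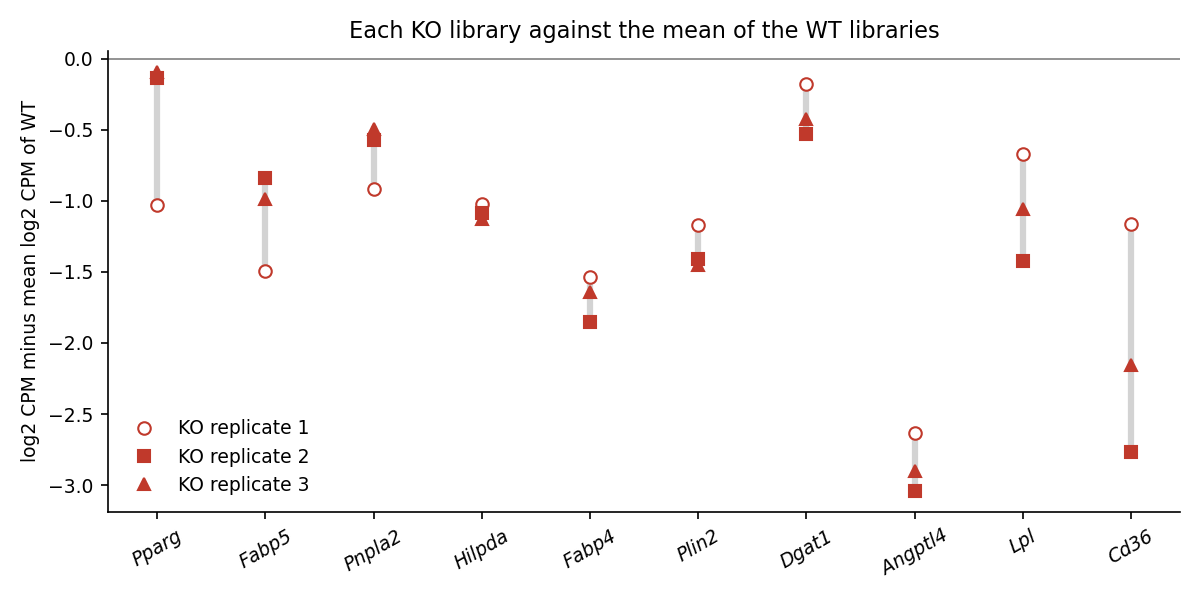
Log2 CPM of each KO library minus the mean log2 CPM of the 3 WT libraries, for the 10 genes ordered by how far KO replicate 1 (open circle) lies from the other KO libraries; grey bars span the 3 KO libraries. Values run from -3.04 for Angptl4 in KO replicate 2 to -0.09 for Pparg in KO replicate 3, and all lie below 0.

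Genes whose profile over the 6 libraries was most like each of the 10 were found by the root mean square distance of centred log2 CPM, among 8229 or 8230 other genes that averaged 10 CPM or more. Fabp4 was nearest to Sgk1 and Exoc3l4 (0.131 and 0.155). Plin2 was nearest to Tst and Exoc3l4 (0.0671 and 0.0845). The nearest pair for Hilpda was Gadd45a and Rhov (0.0765 and 0.123). For Fabp5 it was Plpp3 and Stra6l (0.108 and 0.136), for Lpl Cd84 and Abcd2 (0.0591 and 0.0873), and for Cd36 Il13ra1 and Best1 (0.237 and 0.245). Pparg was nearest to Anxa3 and Timp2 (0.0431 and 0.0682), Pnpla2 to Dbi and Cebpa (0.0523 and 0.0633), and Dgat1 to Rwdd1 and Tsc22d1 (0.0336 and 0.036). The closest genes to Angptl4, Atp6v0d2 and Tfrc, lay farther off, at 0.386 and 0.454. The nearest of the other 9 ranked 4 among the neighbours of Fabp4, 5 for Angptl4, 9 for Hilpda, 11 for Plin2 and 28 for Fabp5. It ranked 122 for Cd36, 191 for Lpl, 254 for Pparg, 317 for Pnpla2 and 3280 for Dgat1. The difference between KO and WT enters this distance, and the 10 were chosen on that contrast, so nothing is read from these ranks. Atp6v0d2 went from 656.1, 794.8 and 983.9 CPM in WT to 139.3, 128 and 182.5 in KO.

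The other genes of these pathways were read from lists. There were 9 lists, 8 of them hand-written and the last the KEGG PPAR signaling pathway without the 10 genes, with 111 tested genes in all. Some genes are on more than 1 list. By edgeR's quasi-likelihood test, Benjamini-Hochberg adjusted over all 11424 genes, 3 of the 111 fell and 2 rose, against 1.06% and 2.26% of all genes tested. Their median log2 difference was -0.07. DESeq2 called 10 of the 111 lower and 7 higher, beside 3.69% and 7.12% of all genes it tested. Without KO replicate 1, 28 of them were called lower and 23 higher, where 26% and 23.6% of all genes tested were, and without each of the other 5 libraries 0 were called.

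**Figure D5:**
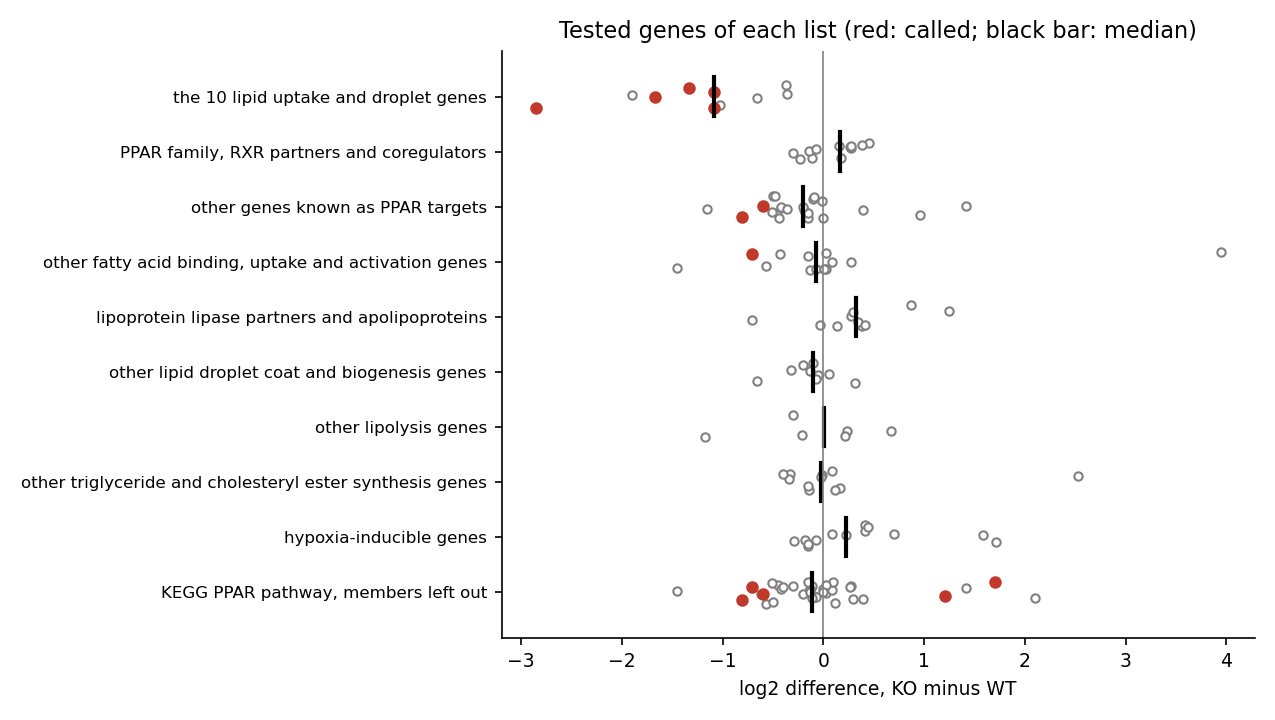
Log2 difference (KO minus WT) of the tested genes of each list, with the 10 lipid uptake and droplet genes in the first row, red where called by edgeR, black bars for the median; vertical scatter within a row has no meaning. The medians of the 9 lists lie between -0.20 and 0.32, and that of the 10 genes, which were chosen on this contrast, at -1.08.

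Among the nuclear receptors and their partners, 0 of 12 tested genes were called by edgeR, with 2 higher and 0 lower at an unadjusted p under 0.05. Of all genes tested, 15% were higher and 7.76% lower at that level. DESeq2 called 1 higher and limma-voom 0, where they called 7.12% and 2% of all genes higher. Rxra, the main partner of PPARs in macrophages, was at 165.3, 218.1 and 234 CPM in KO and 269.4, 236 and 257.1 in WT, and Ppard at 65.7, 33.6 and 35.3 against 52.4, 47.4 and 45.8. With 1 library left out, the log2 difference of Ppard ran from -0.48 to 0.03, around -0.11 from all 6. Ppara had at most 0.103 CPM in any library. Rxra, Ppard and Ppara were named after their values were seen.

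Of 21 other genes known as PPAR targets, 2 fell and 0 rose (1.06% and 2.26% of all genes tested). Below 0 lay 18 of them, beside 50.7% of all genes tested, and the median log2 difference was -0.20. At an unadjusted p under 0.05, 7 were lower and 2 higher, beside 7.76% and 15% of all genes tested. DESeq2 called 5 lower and 0 higher (3.69% and 7.12% of all genes), and limma-voom 2 and 0 (1.1% and 2%). Pltp, the phospholipid transfer protein, was at 318.5, 257.7 and 310.3 CPM in KO and 558.3, 527.8 and 469.6 in WT, a log2 difference of -0.81 (SE 0.121, edgeR adjusted p = 0.0326). Cpt1a, which admits long-chain fatty acids to mitochondria, was at 192.8, 166.4 and 151.8 against 251.4, 250.1 and 272.5 CPM (log2 -0.60, SE 0.111, edgeR adjusted p = 0.0497, at the threshold). Neither group overlapped for these genes. The PPAR target Pdk4 was at 0.719 CPM or less in every library and was not tested with all 6 libraries.

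Of 13 other genes of fatty acid binding, uptake and activation, 1 fell and 0 rose. At an unadjusted p under 0.05, 3 were lower and 1 higher, beside 7.76% and 15% of all genes tested. By DESeq2 2 of the 13 were lower and 1 higher (3.69% and 7.12% of all genes), and by limma-voom 1 and 0 (1.1% and 2%). Dbi, the acyl-CoA binding protein, was at 44.7, 53.5 and 58.9 CPM in KO and 84.4, 90.6 and 82.1 in WT (log2 -0.71, SE 0.124, edgeR adjusted p = 0.0446). Of 37 tested genes of the KEGG pathway, 3 fell and 2 rose, against 1.06% and 2.26% of all genes tested. The 3 that fell were again Pltp, Cpt1a and Dbi, already counted above. DESeq2 called 7 of the 37 lower and 3 higher (3.69% and 7.12% of all genes), limma-voom 3 and 1 (1.1% and 2%). Fads2, a fatty acid desaturase, went from 3.02, 3.81 and 3.36 CPM in WT to 16, 9.4 and 7.98 in KO (log2 1.71, SE 0.306, edgeR adjusted p = 0.0464). Pck2, the mitochondrial phosphoenolpyruvate carboxykinase, went from 22.9, 19.6 and 18.8 CPM to 39.6, 53.9 and 48.2 (log2 1.21, SE 0.152, edgeR adjusted p = 0.0219). Pltp, Cpt1a, Dbi, Fads2 and Pck2 all stayed called without KO replicate 1 and none of them without any of the other 5 libraries. Fads2 was also not called by limma-voom or with the GC and length correction, nor Cpt1a and Dbi without a low-count filter or with one on a mean CPM of 10, nor Dbi with upper-quartile factors.

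The remaining lists had no called gene by edgeR. Their counts stand beside 7.76% of all genes tested lower and 15% higher at an unadjusted p under 0.05. The DESeq2 shares were 3.69% lower and 7.12% higher. For the lipoprotein lipase partners and apolipoproteins, 0 of 10 were called, 1 was higher at an unadjusted p under 0.05, and DESeq2 and limma-voom called 0. Apoc2, the cofactor of lipoprotein lipase, was at 56.9, 28.4 and 31.9 CPM in KO and 23.3, 21.6 and 19.2 in WT (edgeR adjusted p = 0.151). Droplet coat and biogenesis genes other than Plin2 gave 0 of 9 called, with 2 lower at an unadjusted p under 0.05 and 0 by DESeq2 or limma-voom. Pcyt1a, which makes the phosphatidylcholine of the droplet surface, had the smallest p (196.9, 226.3 and 208.2 CPM in KO, 247.8 to 290.4 in WT, edgeR adjusted p = 0.144). Plin3, another perilipin, was at 119.3 to 122.3 CPM in KO and 133 to 142.7 in WT.

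The lipolysis genes other than Pnpla2 gave 0 of 6 called, with 1 lower at an unadjusted p under 0.05 and 0 by DESeq2 or limma-voom. Abhd5, the coactivator of the Pnpla2 enzyme, was at 56.1, 69.8 and 61.4 CPM in KO and 71.8, 74.7 and 83.5 in WT (edgeR adjusted p = 0.204). Of 11 triglyceride and cholesteryl ester synthesis genes, 0 were called, 1 was higher and 3 were lower at an unadjusted p under 0.05, DESeq2 called 1 up and 1 down, and limma-voom 0. Dgat2, the other enzyme that completes triglyceride, was at 0.605, 2 and 1.88 CPM in KO and 0.12 to 0.404 in WT (edgeR adjusted p = 0.0911), and at 0.09 to 1.61 TPM over the 6 libraries, so that Dgat1, at 14.9 to 21.1 TPM, was the more abundant of the pair.

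Hypoxia-inducible genes, which share an inducer with Hilpda and Angptl4, gave 0 of 13 called by edgeR, with 3 higher and 0 lower at an unadjusted p under 0.05. DESeq2 called 1 higher, limma-voom 0. Ankrd37, with the smallest p, was at 1.6, 0.77 and 1.15 CPM in KO and 0.289 to 0.42 in WT (edgeR adjusted p = 0.0741). Their median log2 difference was 0.22, with 5 of the 13 below 0.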

How the data were processed

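Messenger RNA of sorted and cultured RELM-α+ peritoneal macrophages was captured on beads, amplified and sequenced on an Illumina instrument, per the labels' protocols. The submitters' processing notes name fastp 0.18.0 and the build GRCm39; the sources used here do not give the aligner, counter or annotation. The deposited table has GRCm38 positions: 13128 of 15422 genes matched by ID had the start of RefSeq GRCm38.p6, whose positions are printed here. The authors deposited estimated counts per gene, TPM and FPKM, per the file headers. FPKM was not used, TPM served to compare levels between genes, and 4.82% to 5.49% of the estimated counts per library were not whole and were rounded. The authors' deposited log2 fold changes came with DESeq2 p-values and q-values, per the file headers; only a count of q-values under 0.05 is quoted.

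Groups were taken from the sample titles. Genes passing filterByExpr (minimum count 10) numbered 11424, with 4045 not tested. Differences are KO minus WT from edgeR 4.0.16 (R 4.3.3; TMM, robust quasi-likelihood fit, group only), called at a Benjamini-Hochberg adjusted p under 0.05 over all genes tested; the SE was the log2 difference divided by the root of F. CPM used TMM-scaled library sizes. The fit was tested on simulated data. The alternatives tried were DESeq2 1.42.0, limma-voom 3.58.1, other scaling factors (RLE, upper quartile), no low-count filter, a filter on mean CPM of 10, a replicate block, leaving out each library, an adjusted p under 0.01, log2(TPM + 1) for the 10 genes and, added after the data were seen, smooth terms of GC content and transcript length per library (mgcv 1.9.3; 98% of tested genes had both). Without UMIs, counting limits cover counting error only.

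The 10 genes and all lists were chosen with earlier results of these data known. Named besides the 10 are, from each list, up to 3 called genes of largest change that averaged 1 CPM or more, or else the gene with the smallest p, and for each of the 10 its 2 nearest profiles; some genes under this rule are not reported here. Plin3, Pdk4, Me1, Vegfa and the single marker genes were named after their values were seen, as were the gene pairs whose ratios are given. Marker lists covered macrophage, adipocyte, endothelial, mesothelial, fibroblast, platelet, B, T and NK, neutrophil, eosinophil, mast, dendritic and osteoclast cells. No pair of libraries agreed within sampling noise (chi-square per degree of freedom at least 6.83).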

Additional observations from a re-analysis of the deposited data

How the results depend on the processing

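The 10 genes were chosen on this contrast, so their direction, below 0 under every alternative run, is no sign of stability. Hilpda did not pass the filter on a mean CPM of 10. Of the log2 differences of single members under alternatives, 141 moved by less than the spread between replicates and 8 by more, 3 with the GC and length correction and 5 on log2(TPM + 1). Of the 111 pathway genes, 32 changed sign with at least 1 library left out, 0 of them called with all 6. Of these, 2 were called with the opposite sign without KO replicate 1, Me1 (from 0.40 to -0.81) and Vegfa (from 0.09 to -0.63). The number of the 10 genes called was 8 by DESeq2, 2 at an adjusted p under 0.01 and 0 to 9 with 1 library left out, against 5. For the other pathway genes, 5 called became 3 without filtering, 2 with the mean CPM filter, 17 by DESeq2, 14 with the GC and length correction, 0 at an adjusted p under 0.01, and 0 to 53 with 1 library left out. The 53, without KO replicate 1, also count genes of the lists that were not among the 111 tested with all 6 libraries. Of all genes, 379 called became 229, 1344, 719 and 15 with the mean CPM filter, by DESeq2, with the GC and length correction and at an adjusted p under 0.01, and 5 to 5793 with 1 library left out. Each leave-out removes 1 of 6 libraries; otherwise the cause was not tested. GC content and transcript length accounted for 15.9% of the variance of KO minus WT over the tested genes that had both. The GC and length correction changed the split of all calls from 258 higher and 121 lower to 381 and 338. It left Fabp4 at -0.82 and Fabp5 at -0.89 uncalled and called Cd36, Lpl and Pnpla2. The labels do not say that replicate numbers pair the libraries. Correlations of same-numbered deviations were -0.162, 0.246 and -0.271. They cannot decide it, as they rest on deviations from means of 3 libraries, among them KO replicate 1, which stood apart. With the replicate block 0 of all genes, 0 of the 10 and 0 of the pathway genes were called. Depth limits Hilpda (109 to 240 counts) and, in KO, Angptl4 (108 to 134 counts) most among the 10.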

Other observations

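Markers of other cells that the sort could hold were compared without a test of their part in the results above. Fibroblast markers measured (5) summed to 2.15, 21.2 and 33.4 CPM in KO and 5.17 to 8.14 in WT. Osteoclast markers (6), led by Atp6v0d2, summed to 156.1 to 221 CPM in KO and 756.6 to 1115 in WT. Of the 5 tested, 2 were called lower, beside 1.06% of all genes tested. Dendritic cell markers (6) summed to 8.92 CPM in KO replicate 1 and to at most 1.56 in the other 5 libraries. Neutrophil markers (5) summed to 2.03 to 5.67 CPM in KO and 7.87 to 9.13 in WT, and eosinophil markers (4) to 1.16, 6.88 and 6.99 in KO and 6.28 to 8.53 in WT. B cell, T and NK cell, mast cell and mesothelial markers summed to at most 3.47, 1.79, 1.13 and 0.103 CPM in any library. The 9 macrophage markers summed to 19840 CPM in KO replicate 1 and 35350 to 44560 in the others.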
